A study of Mus musculus with 2 samples.

Results

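The 94 protein-coding genes whose symbol starts with Kcn were taken from a mouse annotation of 21938 protein-coding genes on mm10, and 5 non-coding genes with a Kcn symbol were left out. The choice used symbols and no measured value. The letters j with 15 genes, k with 14, a with 11 and h with 8 are the largest.

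Potassium channels let potassium ions leave or enter a cell along their gradient and thereby set the resting potential, end action potentials and shape firing. Most genes of these channels and of their subunits carry symbols that start with Kcn. The letter after Kcn groups them: voltage-gated pores (a to d, h and q), silent subunits that only work inside channels of another family (f, g, s and v), auxiliary proteins (ab, e, ip and rg), inward rectifiers (j), leak channels of the K2P family (k), and channels opened by calcium or sodium (m, n and t). In the newborn hindbrain, neurons are acquiring adult firing patterns while astroglia begin to clear potassium from the extracellular space.

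DNase-seq, which maps open chromatin by cutting accessible DNA with DNase I, was applied to hindbrain tissue from newborn B6NCrl mice (postnatal day 0), males together with females. No allele or treatment is named in the labels, and there is 1 group with 2 biological replicates. Both replicates carry the same donor entry in the labels although they are separate biosamples, and the sources used here give no number of animals. Because there is no second condition, each value is described beside that of all protein-coding genes and no test was run.

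Replicate 1 had 271150 peaks and replicate 2 had 172002, each with an authors' score that is a whole number from 1 to 150 in replicate 1 and up to 147 in replicate 2. The scaling of the score is not stated, so it was used only to rank peaks within a list. A percentile is the rank of a score in its list, in % of the peaks, with equal scores placed at their middle. Promoter peaks of both replicates were found at 10 of 11 hindbrain marker genes, 7 of 8 cerebellar, 5 of 5 neuronal, 4 of 4 astrocyte and 3 of 4 oligodendrocyte lineage genes, against 2 of 3 choroid plexus, 1 of 2 heart, 3 of 7 forebrain, 2 of 5 endothelial and mural, and 0 of 3 microglial, blood and skeletal muscle genes each. The promoters of the microglial genes Aif1 and Cx3cr1 and of the blood genes Gata1 and Alas2 had no peak in either replicate. In whole tissue, open chromatin in few cells and weakly open chromatin in many cells cannot be told apart.

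A promoter peak is one that touches the 500 bp on either side of a start site of the gene, counting all annotated transcripts. Of the 94 Kcn genes, 73 (77.7%) had one in both replicates, against 66.3% of all protein-coding genes. A further 10 had a promoter peak in replicate 1 only, against 4.49% of all genes, none had one in replicate 2 only, and 11 had one in neither, against 28.7%. The voltage-gated pore genes were nearly complete, with 29 of 30 open in both replicates. The inward rectifiers (10 of 15), the K2P leak channels (9 of 14) and the auxiliary proteins (9 of 13) held most of the genes that were not. The silent subunits had 7 of 10, and the channels opened by calcium or sodium, counted with Kcnu1 and the beta subunits of the BK channel, 9 of 12. Median promoter CpG, counted within 500 bp of the 5′ end, also differed, and its part in these shares was not tested. It was 56.5 at the voltage-gated pores, 34 at inward rectifiers, 45.5 at leak channels and 25 at auxiliary proteins. The silent subunits had 35.5, the calcium- or sodium-activated set 29.5 and all protein-coding genes 41. The letters a (11 of 11), b (2 of 2), c (4 of 4), d (3 of 3), h (8 of 8), i (4 of 4), s (3 of 3) and t (2 of 2) and the lone genes of f and u had a promoter peak in both replicates at every member. The letters q (4 of 5), n (3 of 4), m (3 of 5), g (2 of 4), v (1 of 2) and e (2 of 5) did not, and neither did the lone gene of r. In replicate 1 alone all 4 genes of the letter g and 4 of the 5 of the letter e had a promoter peak. Members of a letter are paralogues and some are neighbours, so they are not independent.

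**Figure D1:**
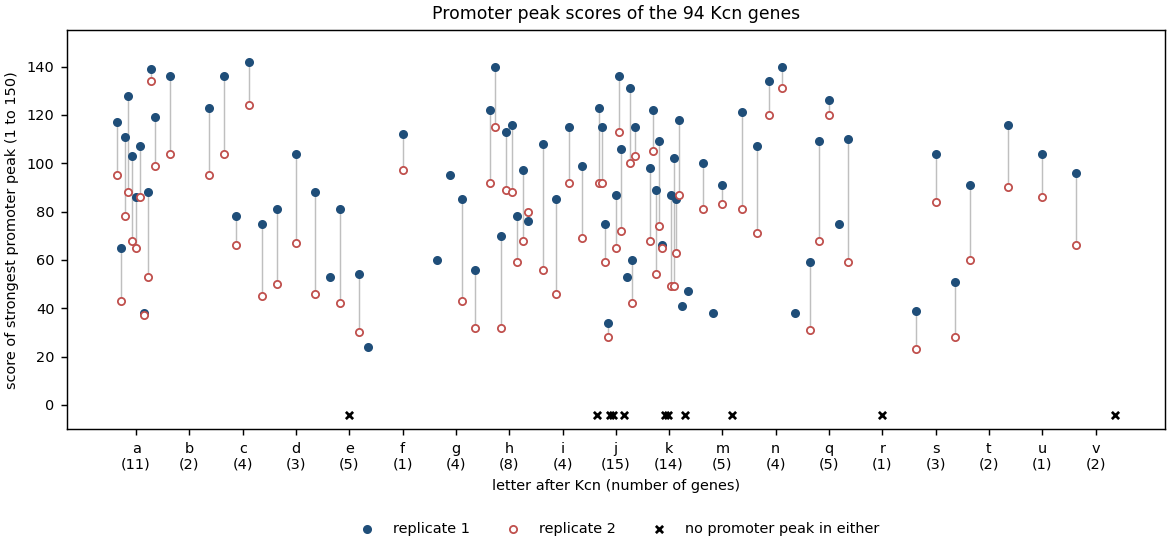
Score of the strongest promoter peak of each of the 94 Kcn genes (vertical axis, authors' score from 1 to 150) by the letter after Kcn (horizontal axis, with the number of genes). Filled points are replicate 1, open points replicate 2, a line joins the scores of a gene, and crosses mark the 11 genes with no promoter peak in either. The 10 filled points with no open partner lie at scores from 24 to 95.

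Among the genes open in both replicates, Kcn promoters had lower scores than promoters at large. The strongest peak was taken in each replicate by itself. At some genes the peaks so paired did not overlap, among them Kcng3, Kcnip2, Kcnj8 and Kcnk3. The strongest promoter peak of a Kcn gene had a median score of 104 in replicate 1 and 69 in replicate 2 (median mean percentile 86.7, n = 73), against 129 and 109 (96.3, n = 14541) for all protein-coding genes. A mean percentile of 95 or more was reached by 11 of the 73 Kcn genes (15.1%), against 60.3% of all genes. A mean percentile below 50 was found at 5 Kcn genes (6.85%), against 4.01%. The genes of voltage-gated sodium and calcium channels were also below the genome median, with 109.5 and 78.5 (percentile 89.3, 34 of 40 genes open in both replicates). The ionotropic receptor genes, of glutamate, GABA and glycine, were taken by symbol (starting Gria, Grid, Grik, Grin, Gabr, Glra or Glrb). They had 109 and 82 (90.3, 35 of 44 genes). This set also holds Grid2ip (96 and 62) and Grina (115 and 85), which do not encode receptor subunits.

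Promoter CpG content, counted within 500 bp of the 5′ end of the gene, had a median of 38 at Kcn genes and 41 at all genes. With 0 to 18 CpG, 9 of 20 Kcn promoters (45%) were open in both replicates, against 21% of all genes. With 19 to 60 CpG the shares were 41 of 48 (85.4%) at Kcn genes and 81.8% at all genes. With 61 or more, 23 of 26 Kcn promoters (88.5%) were open, against 96.9%. These shares count a peak at any start site, and in the CpG-poor class 6 of the 9 open genes, Kcne3, Kcnj13, Kcnj16, Kcnma1, Kcnq1 and Kcnu1, did not have peaks of both replicates at the 5′ end where the CpG were counted. With peaks at the 5′ end alone, 3 of the 20 CpG-poor Kcn promoters (15%) were open, those of Kcna1, Kcna10 and Kcng4, against 9.79% of all genes. The shares of the middle and CpG-rich classes were then 37 of 48 (77.1%) against 76.8%, and 23 of 26 (88.5%) against 96.4%. By the strongest peak at any start, open Kcn promoters had the lower scores in each class. Their median percentiles were 65.1, 88.2 and 87.5 in order of rising CpG, against 86.2, 95.3 and 97.5 for all genes. At the 5′ end alone the medians were 65.1, 86.7 and 86.5 at Kcn genes, against 66.5, 95 and 97.5, so the gap in the CpG-poor class, with 3 Kcn genes, was small there. The replicates ranked the Kcn promoters alike: Spearman's rho of the scores was 0.918 over 73 genes that share the same 2 libraries, against 0.937 over all open genes.

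**Figure D2:**
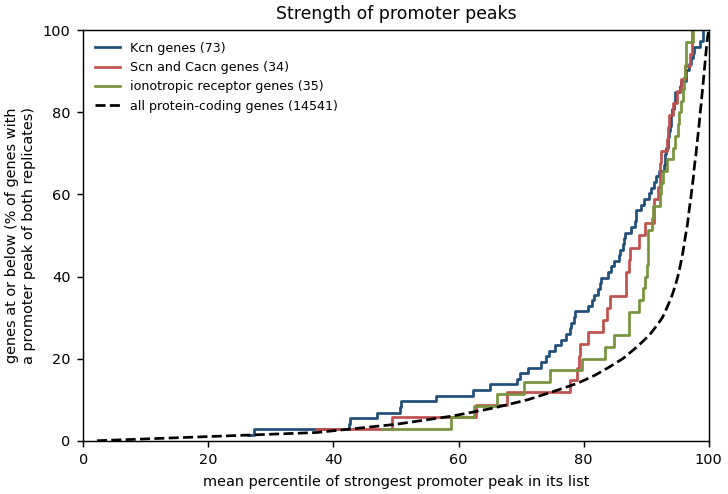
Cumulative share of genes (vertical axis, % of genes with a promoter peak of both replicates) by the mean percentile of their strongest promoter peak in its list (horizontal axis). Lines stand for the 73 Kcn genes, 34 Scn and Cacn genes, 35 ionotropic receptor genes and, dashed, 14541 protein-coding genes. The Kcn line lies left of the dashed line over most of the range, with medians of 86.7 and 96.3.

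The highest Kcn promoters were those of a beta subunit and of a small-conductance calcium-activated channel. Kcnab2, an auxiliary subunit of Kv1 channels, scored 139 in replicate 1 and 134 in replicate 2, and its promoter window touches that of Nphp4, so its peak counts for both genes. Kcnn3, which encodes the SK3 channel, scored 140 and 131 without a coding neighbour. Its peak was centred −94 bp from the start site, at the 5′ end of the gene, and is printed here on the strand of the gene because it is the strongest promoter peak of the family that no other protein-coding gene shares (mm10, chr3:89519996-89520145, + strand, sequence from RefSeq). None of the 14 motifs described further on lies in these 150 bases.
Kcnn3 promoter: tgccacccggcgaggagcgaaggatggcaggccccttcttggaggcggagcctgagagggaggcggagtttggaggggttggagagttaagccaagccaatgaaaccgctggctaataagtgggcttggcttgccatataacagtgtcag

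Several voltage-gated pores also ranked high. Kcnc1, a Kv3 channel that lets neurons fire fast, scored 136 and 104, and Kcnh2, the ERG channel, 140 and 115. Kcnq3, a subunit of the M current that restrains repetitive firing, scored 126 and 120. The peaks of Kcnh2 and Kcnq3 had percentiles of 96.4 or more in both lists, and that of Kcnc1 reached 98.2 and 94.5.

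Kcnb2, a delayed rectifier, scored 123 and 95. Kcnc2 and Kcnc4, of the same family as Kcnc1, were lower than it, with 78 and 66 at Kcnc2 and 75 and 45 at Kcnc4. Within the letter h, Kcnh1, an EAG channel, followed Kcnh2 with 122 and 92, and Kcnh3 was the lowest with 70 and 32. Kcnq5, another subunit of the M current, scored 110 and 59.

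Among the Kv1 genes the highest were Kcna1, which opens at low voltage along axons, with 117 and 95, and Kcna3 with 128 and 88, followed by Kcna6 (107 and 86). Kcna2, the usual partner of Kcna1 in axons, scored 111 and 78, and Kcna4, an A-type channel, 103 and 68. Kcna5, best known from the heart, had 86 and 65. Kcna7 was the lowest of the letter, with 38 and 37, then Kcna10 with 65 and 43. The Kv4 genes of the A-type current, Kcnd1 to Kcnd3, were all below the medians of the open voltage-gated pores, 107 and 68. Kcnd2 was only just below them with 104 and 67, while Kcnd1 had 81 and 50 and Kcnd3 88 and 46. Kcnq1, the slow delayed rectifier of heart and epithelia, was open in both replicates at the low scores of 59 and 31.

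The silent subunits were open at 7 of 10 genes. Kcnf1 was the highest of them with 112 and 97, then Kcns2 with 104 and 84, Kcnv1 with 96 and 66 and Kcng3 with 85 and 43. Kcng4 (56 and 32) and Kcns3 (51 and 28) were open at low scores. Kcns1 had the lowest promoter percentile of all 73 open Kcn genes, 26.4, with scores of 39 and 23. Kcng1 (60) and Kcng2 (95) had a promoter peak in replicate 1 only, and Kcnv2, a subunit of photoreceptor channels, in neither.

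Among auxiliary proteins, the 4 KChIP genes, whose calcium-binding products attach to Kv4 pores, were all open in both replicates. Kcnip3 was the highest of them with 115 and 92, then Kcnip4 (99 and 69) and Kcnip1 (108 and 56), and Kcnip2 was the lowest with 85 and 46. Kcnab3 had 119 and 99 and Kcnab1 88 and 53. The Kcne genes encode small membrane proteins that change the gating of Kcnq1 and other pores. Kcne1l (81 and 42) and Kcne3 (54 and 30) were open in both, Kcne1 (53) and Kcne4 (24) in replicate 1 only, and Kcne2 in neither. Kcnrg, whose product hinders the assembly of voltage-gated channels, had no promoter peak in either.

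Among inward rectifiers, Kcnj2, a classic strong rectifier, was the highest with 136 and 113. The G protein-coupled subunits, which slow neurons in response to transmitters, were open at Kcnj6 (131 and 100), Kcnj9 (115 and 103) and Kcnj3 (106 and 72), while Kcnj5 had a peak in replicate 1 only (53). Kcnj12, another strong rectifier, had 75 and 59. The pore genes of ATP-sensitive channels differed in level, with 115 and 92 at Kcnj11 and 60 and 42 at Kcnj8. Kcnj10, the Kir4.1 channel through which astroglia and oligodendrocytes take up potassium, scored 123 and 92. Kcnj16, whose product joins Kir4.1, scored 87 and 65. Kcnj13, a channel of choroid plexus and retinal pigment epithelium, was near the bottom with 34 and 28. No promoter peak was found in either replicate at Kcnj1 and Kcnj15, both known from kidney, at Kcnj14, or at Kcnj4.

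The K2P family, whose members are background leak channels, was led by Kcnk10 (122 and 105), the stretch-sensitive TREK-2 channel. Kcnk5 (118 and 87), Kcnk13 (109 and 74), Kcnk1 (98 and 68) and the acid-sensitive Kcnk3 (102 and 49) were also open in both, and so were Kcnk4 (85 and 63), Kcnk12 (89 and 54), Kcnk15 (66 and 65) and Kcnk2 (87 and 49). Kcnk9, the TASK-3 channel of cerebellar granule cells, had a promoter peak in replicate 1 only, with a score of 47, and 94 CpG around its 5′ end. Kcnk6 (41) was likewise open in replicate 1 only. Kcnk16, a channel of pancreatic islets, Kcnk18, a channel of sensory neurons, and Kcnk7 had none in either.

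Among calcium- and sodium-activated channels, the SK genes Kcnn2 (134 and 120) and Kcnn1 (107 and 71) joined Kcnn3, while Kcnn4, the intermediate-conductance channel of blood cells and epithelia, had a peak in replicate 1 only (38). Kcnma1, the large-conductance BK pore, scored 100 and 81. Its beta subunits split: Kcnmb4, the neuronal one, had 121 and 81 and Kcnmb2 91 and 83, Kcnmb1, the smooth muscle one, had a peak in replicate 1 only (38), and Kcnmb3 had none. The sodium-activated Kcnt2 had 116 and 90 and Kcnt1 91 and 60.

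The 11 genes without a promoter peak mostly had CpG-poor promoters: 9 of them lay in the class with 0 to 18 CpG. Kcnj4, with 90 CpG, was the exception among the CpG-rich ones, and the centres of its nearest peaks lay just past the window, at 0.61 kb (score 73) in replicate 1 and 0.889 kb (57) in replicate 2. Kcnk16 was close too, at 0.589 kb (51) and 0.628 kb (27). The others were 1.21 to 7.23 kb from the nearest peak of replicate 1 and 2.88 to 18.4 kb from the nearest of replicate 2. A missing peak means that the signal did not reach the authors' threshold and is no proof of closed chromatin.

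Some Kcn genes were open at another start site than the outermost one. Of the 73 genes, 63 had a peak of both replicates at the 5′ end of the gene and 10 did not: Kcne3, Kcnj13, Kcnj16, Kcnk2, Kcnk4, Kcnma1, Kcnn1, Kcnq1, Kcns3 and Kcnu1. In all, 19 Kcn genes had their strongest replicate 1 promoter peak at a start site over 500 bp from the 5′ end. At Kcnn2 this start, of a retained-intron transcript, lay 291 kb downstream and scored 134 and 120, against 119 and 92 at the 5′ end. At Kcnip1 it lay 150 kb downstream and scored 108 and 56, against 83 and 51. At Kcnk10 the start 3.60 kb inside the gene scored 122 and 105, against 71 and 45 at the 5′ end. At Kcnk2, the TREK-1 channel, the strongest peak of replicate 1 (87) lay at a start 58.4 kb inside the gene, and the strongest of replicate 2 (49) was another peak that did not overlap it. At Kcnj16 the peaks lay 29.5 kb inside (87 and 65). Neither Kcnk2 nor Kcnj16 had a peak of either replicate at the 5′ end. Kcnma1 was open at starts about 10.2 kb inside the gene, where the strongest peaks of the replicates did not overlap each other, and Kcnc2, a Kv3 channel, at one 44.2 kb inside (78 and 66, against 57 and 37 at the 5′ end).

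Kcnu1, which encodes SLO3, a potassium channel of sperm, was open at an internal start. Its 5′ end had no peak in either replicate and no distal region was assigned to it, but a peak with scores of 104 and 86 lay −30 bp from a start site 62.1 kb inside the gene. This start belongs to a transcript annotated as protein-coding. The 150 bases are printed on the + strand (mm10, chr8:25911576-25911725) because they hold a repeated unit. At a shift of 24 bases, 49.2% of the bases were the same as those 24 bases further on, the highest share among the shifts tried. At the other Kcn peaks and regions of 150 bases or more printed here the best shift gave 32.2% to 40.5%. None of the Kcnu1 peak is marked as repeat in the genome used.
Kcnu1 internal promoter: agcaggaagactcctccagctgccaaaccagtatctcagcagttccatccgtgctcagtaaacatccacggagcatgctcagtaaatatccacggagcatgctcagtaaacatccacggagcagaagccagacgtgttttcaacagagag

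Away from promoters, Kcn genes had many open regions. Distal regions are those with a peak of each replicate, over 500 bp from every start site of any gene, and each was assigned to the protein-coding gene with the nearest start site. Of 107430 distal regions, 992 were nearest to a Kcn gene. At least 1 was found at 89 of the 94 Kcn genes (94.7%), against 68.7% of all protein-coding genes, and 10 or more at 41 (43.6%), against 15.2%. The median was 7 distal regions per Kcn gene and 2 per protein-coding gene. Replicate 1 alone, with its longer peak list, gave 2145 regions nearest to Kcn genes and medians of 16 and 4, and replicate 2 alone gave 1195 regions and medians of 8 and 2. The territory of a gene, the stretch of genome nearer to its start sites than to those of any other protein-coding gene, was also longer at Kcn genes, with a median of 100 kb against 45 kb. Per 100 kb of territory, Kcn genes had 3.95 distal regions and all genes 3.94. Voltage-gated sodium and calcium channel genes had 6.37 and ionotropic receptor genes 2.78.

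The density differed between short and long territories. The 17 Kcn genes with territories of up to 27.6 kb had 9.63 distal regions per 100 kb, against 5.51 for all genes of that class. The 21 with territories of 27.6 to 77.9 kb had 10.4, against 5.13. The 56 with longer territories had 3.57, against 3.69, and held 845 of the 992 regions. Across the 94 Kcn genes the number of distal regions went with territory length (Spearman's rho 0.834, against 0.667 across all genes), a description of genes that share the same 2 libraries.

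**Figure D3:**
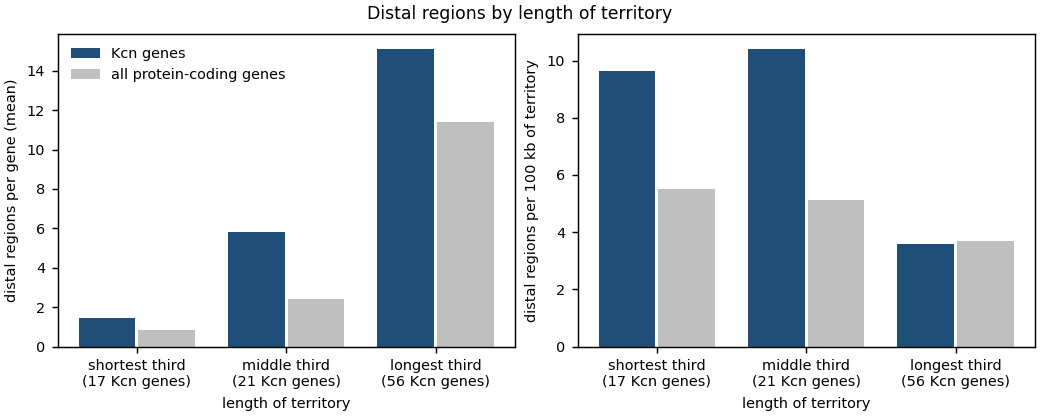
Mean number of distal regions per gene (left) and distal regions per 100 kb of territory (right) in 3 classes of territory length, for Kcn genes and for all protein-coding genes. In the classes of short and middle length Kcn genes reach 9.63 and 10.4 per 100 kb against 5.51 and 5.13, and in the class of long territories 3.57 against 3.69.

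Kcnma1 had the most distal regions of the family, 50, and 99.4% of all protein-coding genes had as many or fewer. Of these, 36 lay in its own gene body and the others outside genes, as far as 448 kb from a start site. Kcnd3 had 37, Kcnj2 33, Kcnh1 32, Kcnj6 31, Kcna4 30, Kcnj3 and Kcnn2 27 each, Kcnip1 26, Kcnip4 25, and Kcna5 and Kcnk9 24 each. Replicate 1 alone gave 112 at Kcnma1 and replicate 2 alone 57, and the counts of the replicates ranked the 94 genes alike (rho 0.947).

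These genes differed in where their regions lay. At Kcnj2, Kcna4 and Kcna5 every distal region (33, 30 and 24) lay outside protein-coding genes, up to 838, 942 and 182 kb away. Kcna4, an A-type channel, has a territory of 1110 kb and a median distal percentile of 29.7, while Kcnd3 (70.8), Kcnj6 (72.2) and Kcna5 (71.6) had the strong sets. At Kcnd3, Kcnh1, Kcnj6, Kcnip1 and Kcnip4 most lay in the gene itself (23, 25, 21, 23 and 18). At Kcnk9, 10 of the 24 lay in the body of Trappc9, its neighbour, and assignment by distance does not show which gene a region acts on. All 7 regions nearest to Kcnmb1 lay in the body of Kcnip1, which spans it.

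**Figure D4:**
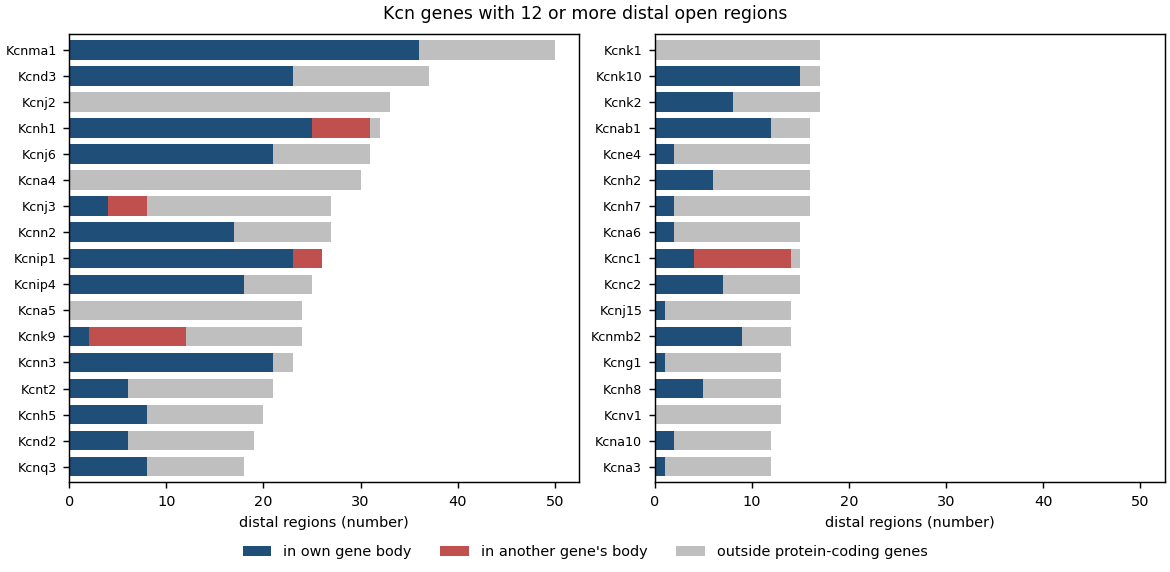
Number of distal open regions (horizontal axis) nearest to each of the 34 Kcn genes with 12 or more, in 2 columns from most to fewest, split by position in the own gene body, in the body of another protein-coding gene, or outside protein-coding genes. Kcnma1 leads with 50, of which 36 lie in its own body.

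**Figure D5:**
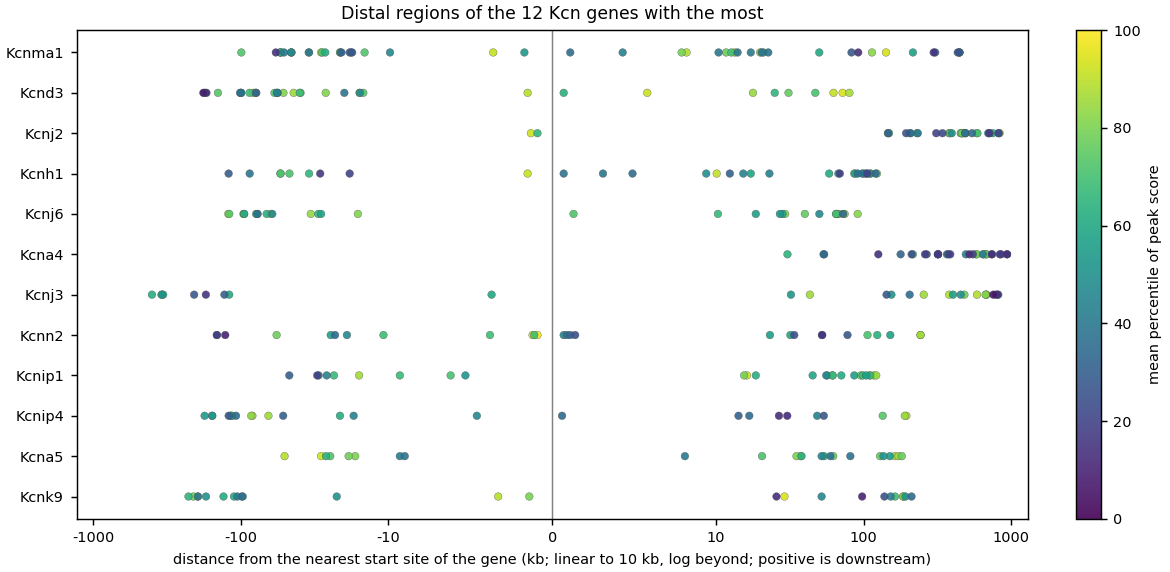
Distance of each distal region from the nearest start site of the gene (horizontal axis, kb, linear to 10 kb and logarithmic beyond, positive is downstream) for the 12 Kcn genes with the most. Colour gives the mean percentile of the peak score. Kcnj2 and Kcna4 have their regions mainly beyond 100 kb downstream, up to 838 and 942 kb.

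No distal region was nearest to Kcnd1, Kcnj14, Kcnk4, Kcnk7 or Kcnu1, and the territories of Kcnd1, Kcnj14, Kcnk4 and Kcnk7 were 8.82 to 11.2 kb long. Among the Kcn genes with 5 or more regions the densest was Kcnn4 with 7 in 31.6 kb, or 22.1 per 100 kb. Kcna10, a channel of the inner ear, had 20.1, Kcnab2 15.4, and Kcnc4 and Kcnh2 14.8 each. Kcnn4 and Kcna10 had weak promoters beside these regions (38 in replicate 1 only, and 65 and 43).

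Several Kcn genes lie side by side. Kcna3, Kcna2 and Kcna10 on chromosome 3 and Kcna5, Kcna1 and Kcna6 on chromosome 6 were all open at the promoter in both replicates. Their distal regions numbered 12, 3 and 12 in the first cluster and 24, 5 and 15 in the second. Kcnj16 and Kcnj2, whose 5′ ends are 98.1 kb apart on chromosome 11, had 3 and 33. Kcnj5 and Kcnj1 on chromosome 9 are 28.1 kb apart, and neither was open in both replicates. Kcne2 and Kcne1, 67.1 kb apart on chromosome 16, were not either.

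Kcnj9 and Kcnj10 start 11.9 kb apart on chromosome 1 and are read away from each other. Both promoters were open in both replicates, and all 5 of their distal regions lay in their own bodies. These had high scores, with a median percentile of 91.5 at Kcnj9 and 92.9 at Kcnj10. The strongest region of Kcnj10 lay in its intron, 8.9 kb downstream of the start, with scores of 121 and 96, close to the 123 and 92 of the promoter. Both are printed on the + strand, the strand of the gene (mm10, RefSeq). Capitals in the intron region mark CTTTGT, the reverse of the SOX letters ACAAAG, and GCTCTGTCC, the reverse of the right part of the REST site.
Kcnj10 promoter, chr1:172341036-172341185: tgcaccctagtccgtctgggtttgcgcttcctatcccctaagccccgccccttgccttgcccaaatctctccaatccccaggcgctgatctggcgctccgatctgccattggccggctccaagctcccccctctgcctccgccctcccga
Kcnj10 intron, chr1:172350016-172350165: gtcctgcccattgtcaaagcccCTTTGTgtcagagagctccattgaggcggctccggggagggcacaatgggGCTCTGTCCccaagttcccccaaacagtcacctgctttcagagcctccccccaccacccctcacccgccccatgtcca

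As a set, the 992 distal regions were of usual strength. Their median scores were 60 and 39, against 60 and 40 for all distal regions. Introns of the assigned gene held 38.6% of them, against 39.1%, and 51.3% lay outside protein-coding genes, against 50.4%. They were farther from start sites, with a median of 39.3 kb against 26.1 kb. Of the Kcn distal peaks of replicate 1, 46.2% were found in replicate 2, against 48.4% of all distal peaks. Of those of replicate 2, 82.4% were found in replicate 1, against 81.7%.

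The strongest distal region of the family was the only one nearest to Kcnn1, the SK1 channel. It lay 2.5 kb upstream with scores of 137 and 134 and ranked 82 of 107430. Its scores were above those of the strongest Kcnn1 promoter peak (107 and 71), which lay at a start 6.25 kb inside the gene. At its 5′ end Kcnn1 scored 60 in replicate 1 and had no peak in replicate 2. Kcnn2 followed, with a region 0.9 kb upstream of an internal start (140 and 119). Kcnq3 had a region in its intron 46.7 kb downstream (123 and 114, rank 608), and Kcnh8, an ELK-type voltage-gated channel, a region 1.5 kb upstream (128 and 107). Kcnj15 had no promoter peak but a region 62.4 kb downstream with 121 and 103. Kcna6 (127 and 98, 34.4 kb downstream), Kcnab2 (119 and 103), Kcnd2 (120 and 99, 1.5 kb upstream), Kcnk9 (119 and 96, intron, 29.1 kb downstream) and Kcnd3 (119 and 96, intron, 72.2 kb downstream) completed the highest ones together with Kcnj10.

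The sequences of the regions at Kcnn1, Kcnq3 and Kcnd3 are given because they are among the strongest of the family and lie upstream of the gene or deep in an intron. They are from RefSeq on mm10, on the strand of the gene, and capitals mark motif letters on either strand. In the Kcnn1 region (− strand) these are CTTTGT (SOX, reverse) and overlapping matches of TCCCNNGGG (EBF) on both strands. In the Kcnq3 region (− strand) they are CAGATG, an E-box, once on each strand. In the Kcnd3 region (+ strand) they are CAGATG and GTTGCCATG, a short site of RFX factors.
Kcnn1, chr8:70865676-70865865: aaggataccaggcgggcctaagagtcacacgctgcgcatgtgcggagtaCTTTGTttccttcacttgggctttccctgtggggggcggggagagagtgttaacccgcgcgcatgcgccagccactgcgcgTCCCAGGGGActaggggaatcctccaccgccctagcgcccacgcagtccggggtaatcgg
Kcnq3, chr15:66239296-66239505: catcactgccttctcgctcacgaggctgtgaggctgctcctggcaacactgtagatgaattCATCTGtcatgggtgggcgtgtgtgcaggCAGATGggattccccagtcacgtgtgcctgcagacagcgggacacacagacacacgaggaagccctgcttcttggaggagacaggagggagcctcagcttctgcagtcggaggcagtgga
Kcnd3, chr3:105530876-105531025: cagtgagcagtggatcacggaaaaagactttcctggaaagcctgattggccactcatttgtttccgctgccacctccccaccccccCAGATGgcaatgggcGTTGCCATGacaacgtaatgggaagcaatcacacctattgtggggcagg

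The letters of 14 motifs were searched on both strands of the 200 bp around the centre of each region. Most were found in Kcn distal regions about as often as in all distal regions. The short site TTGGCA of NFI factors was in 22.1% of both, CAGATG in 26.6% against 24.0%, CAGCTG in 21.1% against 20.6%, and the SOX letters ACAAAG in 16.6% against 18%. The homeobox letters TAATTA were in 6.35% against 6.89%, TGACTCA (AP-1) in 4.44% against 4.19%, and TCCCNNGGG (EBF) in 4.44% against 4.02%. TATTTTTA (MEF2) was in 1.92% against 1.75%, CCTGCTGGG (ZIC) in 1.01% against 1.08%, AGGGGGCGC (CTCF core) in 0.706% against 1.07%, and TGACGTCA (CRE) in 0.302% against 0.361%. The higher shares were those of the RFX letters GTTGCCATG, 2.82% (28 regions, exact 95% interval 1.88 to 4.05) against 1.83%, and of the right part GGACAGNGC of the REST site, 2.02% (20 regions, 1.24 to 3.10) against 1.17%. The intervals cover counting error only and make no allowance for the choice of these motifs among the 14. Regions of a gene are not independent.

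REST silences neuronal genes outside neurons and binds a site made of a left and a right part, which are also known at other spacings. Its left part, TTCAGCACC, stood in 5 of 151 promoter regions of Kcn genes (3.31%), among them those of Kcnc1, Kcnh6, Kcnk3 and Kcns2, against 104 of 25414 promoter regions of all protein-coding genes (0.409%). In distal regions it stood in 6 of 992 (0.605%), among them those of Kcnab2, Kcnd3, Kcnh2, Kcnk9 and Kcnmb1, against 365 of 107430 (0.34%). At 4 of these 6 distal sites the core of the right part, GGACAG, followed 2 bases after the left part, and such a core within 20 bases after it was found at 100 of the 365 (27.4%). Among the promoter regions it followed at Kcnh6, with 7 bases between, and at 31 of all 104 (29.8%).

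Another arrangement was looked for after the sequences had been seen. At the Kcnc1, Kcnk3 and Kcns2 promoters the core stood on the other strand, as CTGTCC, 1 base before the left part. A core on the other strand before the left part, at any spacing searched, was found at 7 of all 104 promoter regions (6.73%), these 3 included. It was found at 7 of 365 distal regions with the left part (1.92%), of which 1 is among the 6 distal sites of Kcn genes. Across all genes the spacing of 1 base was not counted by itself, so its frequency there is not known. Kcnc1 and Kcns2 encode a Kv3 pore and a silent subunit, and Kcnk3 an acid-sensitive leak channel. The regions scored 101 and 67 at Kcnc1, 102 and 42 at Kcnk3 and 104 and 84 at Kcns2. A match of letters is a description and does not show that the factor bound.

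The sites are printed on the strand that reads the left part, from RefSeq on mm10, with the left part and the core in capitals. The Kcnc1, Kcnk3 and Kcns2 sites have the core before the left part, and the Kcnh6, Kcnh2 and Kcnk9 sites after it. The regions with these later sites scored 68 and 29 at Kcnh6, 103 and 72 at Kcnh2, and 55 and 33 at Kcnk9.
Kcnc1, chr7:46396824-46396873, + strand: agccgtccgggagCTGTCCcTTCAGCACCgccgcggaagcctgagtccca
Kcnk3, chr5:30588085-30588134, − strand: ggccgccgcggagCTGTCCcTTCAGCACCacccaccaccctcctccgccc
Kcns2, chr15:34837432-34837481, + strand: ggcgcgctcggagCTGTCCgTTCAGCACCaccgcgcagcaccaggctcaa
Kcnh6, chr11:106007942-106007991, + strand: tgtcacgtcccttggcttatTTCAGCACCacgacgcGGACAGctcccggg
Kcnh2, chr5:24357600-24357649, − strand: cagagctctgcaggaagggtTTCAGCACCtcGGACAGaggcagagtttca
Kcnk9, chr15:72568648-72568697, − strand: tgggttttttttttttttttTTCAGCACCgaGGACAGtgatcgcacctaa

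In promoter regions the EBF letters TCCCNNGGG were in 17 of 151 Kcn regions (11.3%), against 6.04% of all. CAGCTG was in 17.2% against 13.3%, and the right part of the REST site in 1 region (0.662%), against 1.7%. The NFI letters stood in 9.27% against 9.52%, and ZIC letters in none of 151, against 0.921%. SOX letters were in 6.62% against 9.93%, CTCF core letters in 3.97% against 2.12%, and CRE letters in 1.32% against 2.14%. No allowance was made for the choice of the EBF letters among the 14 motifs, and regions of a gene are not independent.

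In a list of 37 genes, 36 (97.3%) were open at the promoter in both replicates, against 66.3% of all protein-coding genes. The list holds partners and anchors of potassium channels. It also holds 4 Hcn channels, 6 sodium pump subunits and 4 chloride and potassium carriers, which are not such partners and were all open. The list had the higher promoter CpG content, with a median of 57, against 41 for all genes and 38 for Kcn genes. The exception, Lrrc55, a gamma subunit of the BK channel, had one in replicate 2 only (29). All 12 genes of Kv1 clustering at axons and synapses, all 6 sodium pump subunits, all 4 Hcn pacemaker channels and both Kv4 partners, Dpp6 (116 and 98) and Dpp10 (113 and 83), were open. The 3 Kcnd genes and the 4 Kcnip genes, whose products form a complex with them, were likewise all open. The partners with the most distal regions were Dlg2 with 72, Cntnap2 with 64, Dpp6 and Ank3 with 50 each and Ank2 with 42. Dlg2 and Cntnap2 have long territories, of 2020 and 2990 kb. Per 100 kb of territory the list had 4.18 distal regions, against 3.94 for all protein-coding genes. Among Kcn genes of the same complexes the counts differed widely. Kcnd3 had 37, Kcnd2 19 and Kcnd1 0, and the Kv1 genes ran from 30 at Kcna4 to 2 at Kcna7, with a median of 12.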

How the data were processed

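Hindbrain DNase-seq of 2 biological replicates was used as 1 group. Peak and hotspot calling was done on each library by itself, without pooling, from filtered mm10 alignments, per the authors' list of files. The sources used here name no caller, threshold or aligner. The deposited peak tables hold a score per peak with no stated scaling and empty p and q fields. The deposited hotspot tables hold a −log10 q, used here only for an alternative count. Read depth is unknown, so its effect on a peak's precision cannot be given.

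Peaks off the assembled nuclear chromosomes were left out, which kept 270757 and 171790. Start sites came from GENCODE M21 and sequences from RefSeq, both on the build of the peaks. Peaks of the replicates that overlapped by at least 1 bp were merged into shared regions (136714, of which 107430 were distal and assigned by their centre). The computations used Python 3.11.15, numpy 2.4.6, scipy 1.17.1 and pysam 0.24.0 and were tested on simulated data. Intervals are exact binomial (Clopper-Pearson).

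The Kcn genes, the gene and motif lists and the comparisons were chosen with earlier results of these data known. Genes are named by their place at the top of promoter score (12, and the highest of each letter), distal count (12), distal score (12 regions) or density (5), or because they lack peaks or were open at an internal start; the other Kcn genes named fill out their letter and were chosen after their values were seen. A few genes that these rules would name are counted but not reported here by name. Alternatives were each replicate alone, peaks at or above the median score, hotspots, lists of equal length, other windows, start sites, overlaps, distances and motif windows.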

Additional observations from a re-analysis of the deposited data

How the results depend on the processing

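No paired analysis was possible because the study has 1 group. The number of Kcn genes with a promoter peak of both replicates was 73 and lay between 63 (only the 5′ end of each gene, against 60.7% of all genes) and 83 (replicate 1 alone, against 70.8%); with replicate 2 alone it was 73. The distal counts moved with the length of the peak list. Leaving out a replicate gave 1195 to 2145 distal regions nearest to Kcn genes in place of 992, a median of 8 to 16 per gene in place of 7, and 503 to 954 in the own gene body in place of 420, the higher value each time from replicate 1 alone, where the median of all protein-coding genes was 4. With peaks at or above the median score they were 511 regions, a median of 4 (all genes 1) and 223 in the own body. The count of Kcn genes with at least 1 distal region stayed between 83 and 93. The other 35 values of these counts were within 1.5 times the main one. Of the values by letter and motif, 113 were so too and 14 moved. Among these were the letters e and g, with 2 open genes each in the main count and 4 each in replicate 1 alone. The cause was not tested. The others that moved were motif shares, most of them in the narrower motif window of 100 bp. The NFI letters, in 22.1% of Kcn distal regions in the main window, were there in 14.4%, against 14.3% of all distal regions. Unknown read depth, a score without a stated scale, whole tissue with many cell types and assignment by distance limit all of these values.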
